A study of Homo sapiens with 6 samples.

Results

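A set of 5 carriers that move amino acids, organic anions, sulfate and protons across cell membranes, together with the voltage-gated sodium channel gene SCN9A, were followed in imatinib-resistant K562 cells. The 6 genes are SLC16A10, SLC26A11, SLC9A2, SLCO4C1, SLC7A8 and SCN9A. They were chosen from the authors' deposited table of 674 genes shared by their comparisons, so the presence of all 6 there is no result. Their rows were found by matching Ensembl identifiers to gene symbols. K562 is an established human chronic myeloid leukaemia line driven by the BCR-ABL1 fusion kinase, the target of imatinib. The labels describe 2 RNA sequencing libraries each of the imatinib-resistant lines K562-IR1 and K562-IR2, both grown with imatinib present throughout, and 2 of the imatinib-sensitive wild-type line K562-WT. All lines were cultured in RPMI1640 with serum and antibiotics, and the labels give neither the dose of imatinib nor whether a resistant line is 1 clone. Resistance and the presence of the drug cannot be told apart in this design.

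Each gene has 2 values in the authors' deposited table, a log2 fold change for each comparison of a resistant line with WT. The header names neither the line behind each column nor the group that is the numerator, so a negative value may mean lower or higher expression in the resistant line. The columns are called the first and the second here, and genes are described by sign and by the size of the fold. No value per library, no error and no p-value was used here, so the depth is unknown and the folds cannot be compared with the variation among libraries. Expression levels were not used here either, so the identity of the cells was not checked against marker genes. Both columns share the WT libraries, so a like value in both is not a repeat measurement.

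As background, SLC carriers move nutrients, ions and drugs through membranes by exchange, cotransport or facilitated diffusion. Transporters for large neutral and aromatic amino acids also carry thyroid hormones, whose structure derives from tyrosine. SCN9A encodes Nav1.7, a sodium channel best known from pain-sensing neurons, where loss of the channel abolishes pain. These genes are better known from kidney, gut, brain and sensory nerve than from blood cells.

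The promoters are shown because 5 of the 6 genes share the sign of their folds and SLC16A10 has the other. RefSeq promoter windows on the build GRCh38.p14 were matched for 5 of the 6 genes, and the 250 bases before the annotated start are given 5′ to 3′ for the 4 genes with a single start site. Capitals mark matches, on either strand, to any of the following motifs: the GC box GGGCGG, the CCAAT box with those letters, the TATA box as TATAAA, the GATA factor motif as GATAA, the STAT factor motif as TTCNNNGAA and a nuclear receptor motif as AGGTCA. Matches that overlap or directly adjoin are joined in 1 capital run. The window of SCN9A is chr2:166375945-166376194, minus strand, that of SLC9A2 chr2:102619303-102619552, plus strand, that of SLCO4C1 chr5:102296285-102296534, minus strand and that of SLC16A10 chr6:111087253-111087502, plus strand.
SCN9A: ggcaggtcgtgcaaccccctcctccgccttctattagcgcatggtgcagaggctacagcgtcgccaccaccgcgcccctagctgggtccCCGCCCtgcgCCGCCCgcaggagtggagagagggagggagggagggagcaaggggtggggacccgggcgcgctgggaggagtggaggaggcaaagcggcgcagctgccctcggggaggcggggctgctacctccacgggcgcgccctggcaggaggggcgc
SLC9A2: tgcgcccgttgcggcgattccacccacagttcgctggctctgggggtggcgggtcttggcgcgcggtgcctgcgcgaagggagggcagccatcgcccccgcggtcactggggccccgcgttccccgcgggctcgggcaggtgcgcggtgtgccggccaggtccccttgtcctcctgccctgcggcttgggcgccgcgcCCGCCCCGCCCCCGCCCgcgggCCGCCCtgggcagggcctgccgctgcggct
SLCO4C1: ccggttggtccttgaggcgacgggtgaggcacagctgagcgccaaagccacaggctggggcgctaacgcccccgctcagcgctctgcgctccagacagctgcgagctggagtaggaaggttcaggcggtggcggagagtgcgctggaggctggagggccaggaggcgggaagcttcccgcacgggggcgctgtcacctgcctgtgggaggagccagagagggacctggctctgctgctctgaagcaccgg
SLC16A10: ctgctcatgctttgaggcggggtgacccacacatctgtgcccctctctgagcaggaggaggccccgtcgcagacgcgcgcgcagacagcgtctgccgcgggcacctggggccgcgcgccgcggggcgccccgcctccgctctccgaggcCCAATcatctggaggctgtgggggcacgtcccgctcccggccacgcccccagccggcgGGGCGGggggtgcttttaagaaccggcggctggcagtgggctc

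The 4 windows were rich in G and C, at 74.0% for SCN9A, 79.6% for SLC9A2, 69.2% for SLCO4C1 and 74.4% for SLC16A10. The 4 RefSeq starts of SLC7A8 were lower, between 50.0% and 61.6%. The median was 66.4% over the 103 negative protein-coding genes of the authors' deposited table that had a window, and 60.8% over the 286 positive ones. Each of these genes was counted at the mean of its windows. Over all 34943 windows, counted singly, the median was 58.0%, so the units are not alike. SLC9A2 had 4 GC box matches, SCN9A 2, SLC16A10 1 and SLCO4C1 0, and 1 of the 4 SLC7A8 windows had 1. At least 1 such match lay in 42.5% of all windows. The CCAAT box was matched in SLC16A10 and in 2 of the 4 SLC7A8 windows, against 32.0% of all windows. The GATA motif was matched in 1 SLC7A8 window, against 20.5% of all windows. The 8 windows of these genes include the 4 of SLC7A8, some of which overlap, so they are not 8 separate sequences. The TATA box was matched in 0 of the 8 windows and in 10.8% of all windows. The STAT motif was matched in 0 of the 8 and in 6.56% of all windows, and the nuclear receptor motif in 0 of the 8 and in 12.1% of all windows. SLC16A10, with positive folds, had a base composition between those of SCN9A and SLC9A2, with negative folds.

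Folds were negative in both columns for 5 of the 6 genes and positive for 1, where 25.7% of all listed genes (173 of 674) were negative and 74.3% positive in the authors' deposited table. The genes were chosen with these signs known, so the count is a description and no test was applied. The median absolute log2 fold change of the 6 genes in the authors' deposited table was 2.38 (first column) and 2.96 (second column). It was 2.28 and 2.89 over all listed genes, and 2.26 and 2.69 over the protein-coding ones, the type of all 6. No listed gene has a log2 fold change smaller than 1.5 in size in either column. In the authors' deposited table the 6 genes ranged in size from 1.68 to 3.94 (first column) and from 1.94 to 4.33 (second column).

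**Figure D1:**
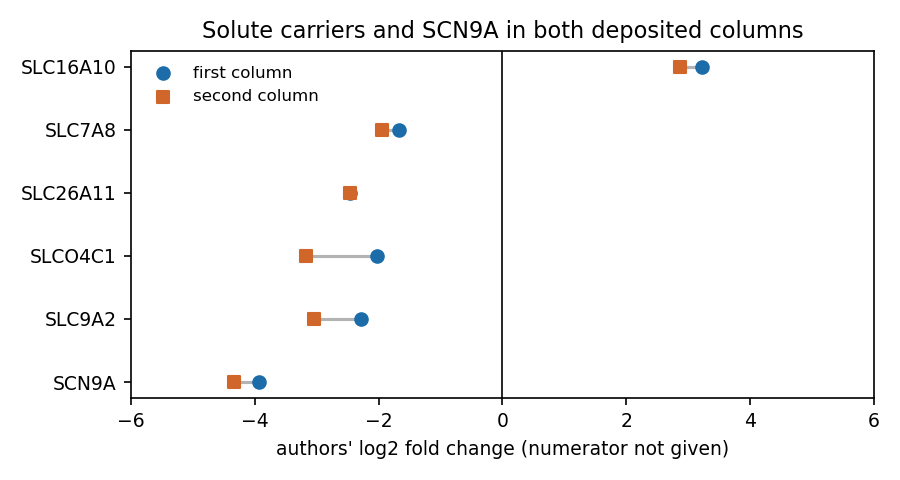
Log2 fold changes of the 6 genes in the first column (circles) and the second column (squares) of the authors' deposited table, joined by a line per gene; the numerator is not given. SCN9A lies farthest from 0 at -3.94 and -4.33, and SLC16A10 alone is positive, at 3.22 and 2.87.

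SCN9A (ENSG00000169432, chromosome 2) had the largest folds of the 6. The authors' deposited table gave it log2 fold changes of -3.94 (first column) and -4.33 (second column). These are folds of 15.4 and 20.1 in size. By the mean of both columns SCN9A ranked 16 among the 173 negative genes and 9 among the 128 negative protein-coding ones. SCN9A passed a fold of 16 in the second column alone, a size that 22% of all listed genes reached there and 7.57% reached in the first, per the authors' deposited table. SCN9A was the only 1 of 15 annotated sodium channel genes in the table, counting pore-forming and beta subunits and the leak channel NALCN. Its close relatives SCN1A, SCN2A, SCN3A and SCN7A, which lie in the same chromosome 2 cluster, were not among the listed genes. In GENCODE release 29, 8.17% of the exonic bases of SCN9A also lie in exons of the antisense RNA AC010127.1, which was not listed. Whether the counting used strand is not stated, so reads from the shared bases cannot be assigned.

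SLCO4C1 (ENSG00000173930, chromosome 5) encodes OATP4C1, a carrier of organic anions and thyroid hormone known from the kidney. The log2 folds of SLCO4C1 in the authors' deposited table were -2.03 (first column) and -3.17 (second column), folds of 4.07 and 9.01 in size. The second fold was 2.21 times the first, the widest gap of the 6 genes and the 36th of the 173 negative genes when ordered by this gap. SLC9A2 (ENSG00000115616, chromosome 2) encodes NHE2, a sodium-proton exchanger of epithelial membranes that exports acid. It had -2.29 and -3.04 in the authors' deposited table, folds of 4.90 and 8.25 in size and 1.68 times apart. SLCO4C1 and SLC9A2 were therefore nearly level in the second column and ranked 78 and 71 among the 173 negative genes by the mean of both columns.

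SLC26A11 (ENSG00000181045, chromosome 17) encodes a sodium-independent sulfate transporter. Its folds were the most even of the 6, with log2 values of -2.46 (first column) and -2.47 (second column) in the authors' deposited table, or 5.5 and 5.53 in size. It ranked 97 among the 173 negative genes by mean, but 67 by the first column and 108 by the second, and 124 of the 173 negative genes were larger in the second. SLC7A8 (ENSG00000092068, chromosome 14) encodes LAT2, a light chain that exchanges neutral amino acids and carries thyroid hormone in a pair with the heavy chain SLC3A2. The authors' deposited table gave it the smallest log2 fold changes of the 6, -1.68 and -1.94, or folds of 3.2 and 3.84. It ranked 153 among the 173 negative genes, near the lower limit of the table. SLC3A2 was not among the listed genes.

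SLC16A10 (ENSG00000112394, chromosome 6) encodes TAT1, a facilitative carrier of aromatic amino acids that also carries thyroid hormones. It was the positive member, with log2 values of 3.22 (first column) and 2.87 (second column) in the authors' deposited table, folds of 9.32 and 7.31 in size. It was also the only 1 of the 6 with the larger fold in the first column, by 1.27 times. Such an order was shown by 108 of the 501 positive genes. SLC16A10 ranked 166 among the 501 positive genes by mean, 91 by the first column and 261 by the second. In GENCODE release 29, 1.58% of its exonic bases are shared with the antisense RNA AL360227.1, which was not listed.

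For 5 of the 6 genes the second column held the larger fold, an order that 76.7% of all listed genes of the authors' deposited table had. A gap of more than 0.32 on the log2 scale in favour of the second column was held by 3 genes, SLCO4C1, SLC9A2 and SCN9A. Such a gap was held by 57.6% of all listed genes and by 48.75% of the protein-coding ones, the type of all 6. The median gap was 0.33 on the log2 scale for the 6 genes, 0.47 for all listed genes and 0.31 for the protein-coding ones in the authors' deposited table. No error is at hand for these gaps, so a difference between the lines was not tested for any gene.

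**Figure D2:**
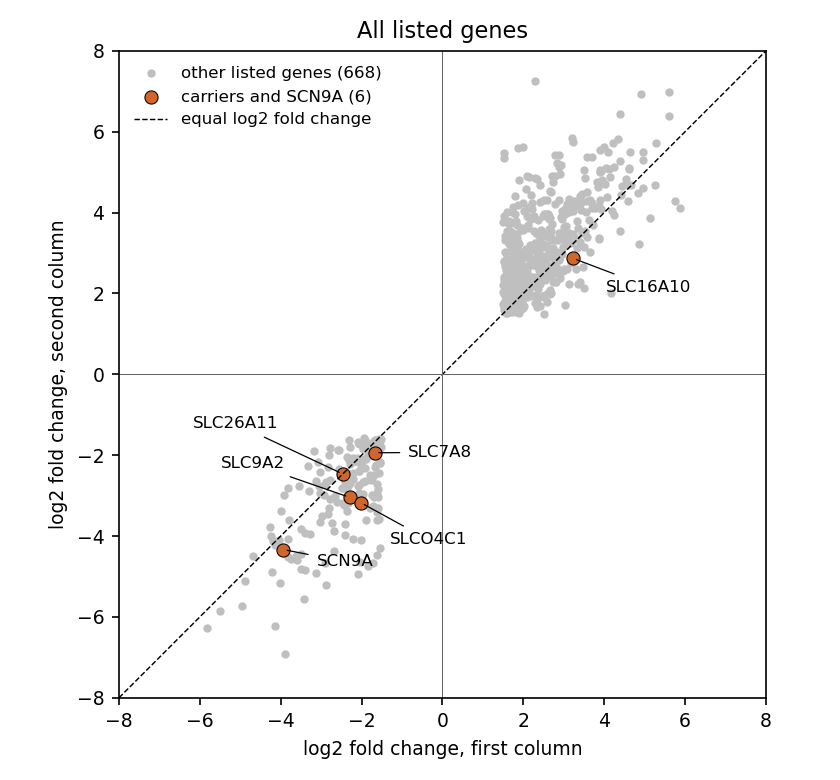
Log2 fold changes of all 674 listed genes in the second column (vertical axis) against the first (horizontal axis) of the authors' deposited table, with the 6 genes as large labelled points and the line of equal values dashed. Points in the lower left are negative in both columns; SLC26A11 (-2.46 and -2.47) lies on the line, and SLCO4C1 (-2.03 and -3.17) lies farthest below it among the 6.

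The nearest listed genes were found by the Euclidean distance between pairs of log2 fold changes, over the 2 columns alone. For SLC26A11 the nearest was SGSH, at a distance of 0.05, with -2.46 and -2.42 in the authors' deposited table. NYNRIN and SEMA7A followed at 0.06 and 0.12. SCN9A had no neighbour as close. Its nearest genes were USP24P1, FUT8 and ANO5, a member of the anoctamin membrane protein family, at distances of 0.22 to 0.24. GABRA2, a subunit of the GABA-A receptor chloride channel, was the second nearest to SLC9A2 (0.19) and the third nearest to SLCO4C1 (0.13), and the authors' deposited table gave it -2.10 and -3.07. The other genes nearest to SLC9A2 were FN1 and PRDM9, and those nearest to SLCO4C1 were APOL1 and CD80. For SLC7A8 these were ANXA1, AKR1C2 and GLIPR2 (0.06 to 0.10), and for SLC16A10 MAGEB16, ADGRD1 and ATF5 (0.07 to 0.14). With 2 columns that share the WT libraries, a short distance describes like folds only.

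SGSH is also the direct neighbour of SLC26A11 on the chromosome. It encodes the lysosomal sulfamidase that removes sulfate from heparan sulfate, and it lies on the opposite strand. In GENCODE release 29 the gene bodies overlap at both 5′ ends by 1225 bases, but the exons share 8 bases, which is 0.16% of the exonic bases of SLC26A11. Whether reads were shared between them was not tested. The 2 genes differed by at most 0.051 on the log2 scale in each column.

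Of the 120 protein-coding genes within 10 places of the 6 genes in gene order, 6 (5.0%) were listed, where 2.41% of all annotated protein-coding genes (480 of 19951) were. The sign matched that of the described gene for 5 of these 6. Of the 6 neighbours 4 were negative, where 25.7% of all listed genes were negative and 74.3% positive. The match in sign was not tested, and SGSH overlaps SLC26A11. ST8SIA4, a polysialyltransferase gene 1 place from SLCO4C1 in the order of protein-coding genes, had -1.63 and -2.72 in the authors' deposited table. Like SLCO4C1 and 76.7% of all listed genes it was larger in the second column. IL1R1, the interleukin-1 receptor gene 6 places from SLC9A2, had -3.81 and -2.80 in the authors' deposited table, with the larger fold in the first column. The 5 genes between them, IL1RL2, IL1RL1, IL18R1, IL18RAP and SLC9A4, were not listed. COBLL1, 8 places from SCN9A, had -2.69 and -4.36 in the authors' deposited table. RFPL4B, 10 places from SLC16A10, was positive, with 1.84 and 2.68 in the authors' deposited table. The exception in sign was FHL2, a LIM domain gene 8 places from SLC9A2 on its other side, which the authors' deposited table gave as 2.32 and 1.96. SLC7A8 had no listed gene within 10 places.

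**Figure D3:**
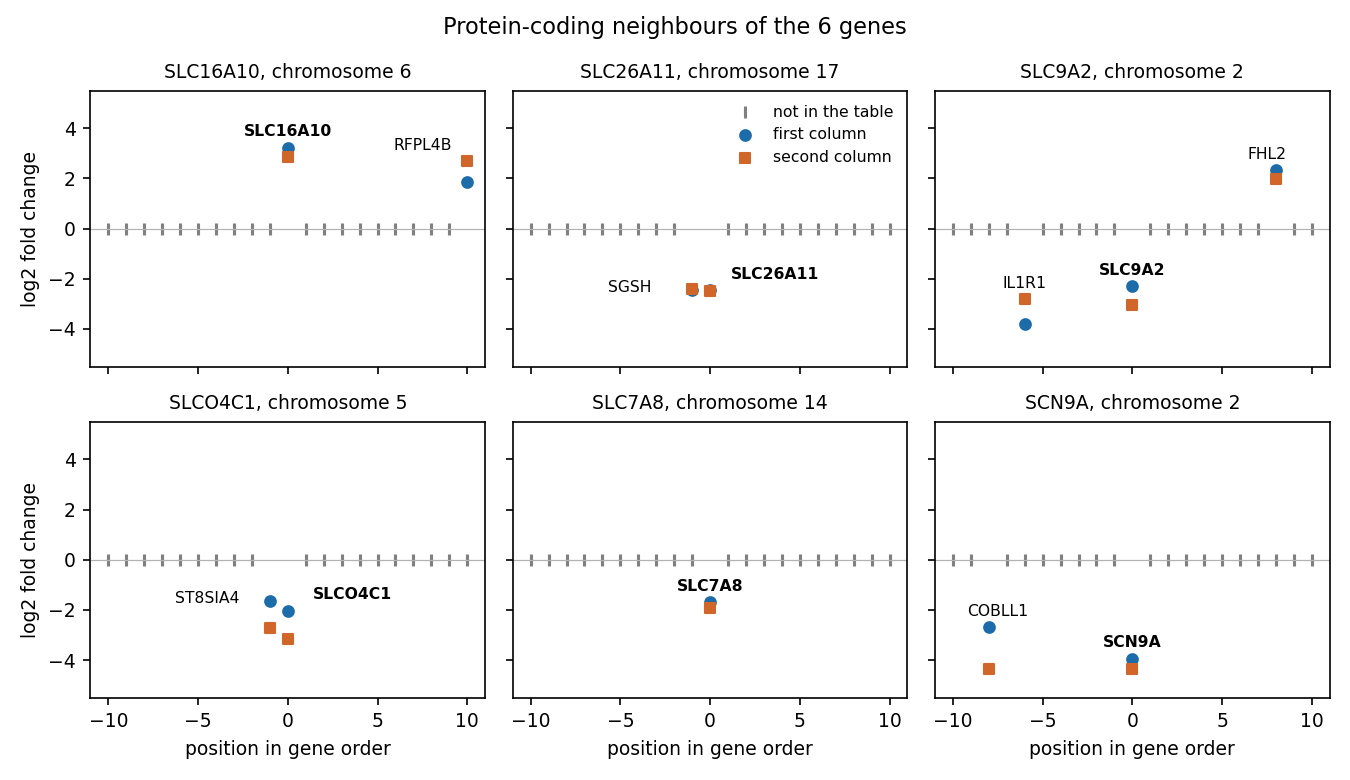
Log2 folds, from the authors' deposited table, of the 6 genes (position 0) and of the listed genes among 10 protein-coding neighbours on each side, in gene order of GENCODE release 29; grey ticks are neighbours that are not in the table. SGSH for SLC26A11 and ST8SIA4 for SLCO4C1 are the listed neighbours 1 place away, and both have the sign of that gene. Places count protein-coding genes and give no distance in bases.

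Of 372 annotated protein-coding solute carrier genes, 9 were listed (2.42%), close to the 2.41% of all protein-coding genes. These shares count annotated genes whether or not K562 cells express them. Besides the 5 carriers described above, the authors' deposited table held 4 protein-coding ones, all positive. SLC41A2, a magnesium carrier gene, stood at 2.69 and 2.92, and SLC44A1, a choline carrier gene, at 2.65 and 2.07 in the authors' deposited table. SLC27A6, a fatty acid transport protein gene, had 3.03 and 1.72 in the authors' deposited table. SLC16A9, a monocarboxylate carrier gene of the same family as SLC16A10, had 2.18 and 3.12 in the authors' deposited table. The pseudogene SLC9A3P2 was positive too (3.99 and 5.63 in the authors' deposited table), and reads of its parent gene may fit it. Carriers and sodium channels together were negative for 5 of 11 listed genes, where 25.7% of all listed genes were negative. These 5 are the negative genes among the 6 described, which were chosen with their signs known.

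**Figure D4:**
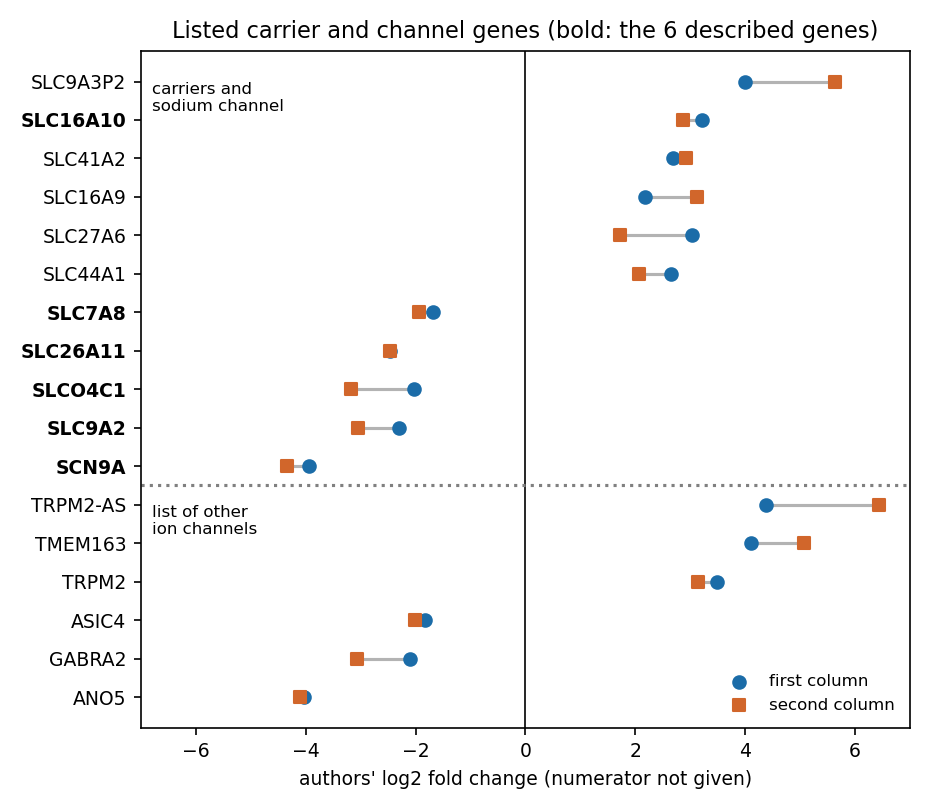
Log2 fold changes in the first column (circles) and second column (squares) of the authors' deposited table for the listed solute carriers and sodium channel (upper block) and for 6 genes of the list of other ion channels (lower block), with the 6 described genes in bold. The upper block holds 5 negative and 6 positive genes, and the lower block shows 3 negative and 3 positive ones. Of all listed genes 25.7% were negative.

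The list of other ion channels was negative for 3 of 8 listed genes, where 25.7% of all listed genes were negative. The 3 were ANO5 (-4.03 and -4.11), GABRA2 and the proton-gated channel family gene ASIC4 (-1.83 and -2.0) in the authors' deposited table. Its 5 positive genes included the cation channel gene TRPM2, with 3.5 and 3.14 in the authors' deposited table. TRPM2-AS, an antisense RNA, and TMEM163, a zinc transporter gene, were caught by their symbols and are not channels. They stood at 4.39 and 6.44 and at 4.11 and 5.07 in the authors' deposited table. SCN9A and ANO5 were the negative genes with the largest folds in these lists of carriers and channels. Membership of a list does not show that a gene encodes a channel.

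The counts by role below include the 6 genes themselves, which were taken from the table because they were listed, so they are read against the 2.41% of all protein-coding genes as descriptions only. By role, 4 of 25 genes (16%) of thyroid hormone transport, deiodination and reception were listed, 3 of them among the 6. They were the carriers SLC16A10, SLC7A8 and SLCO4C1, which differ in sign as given above, and the receptor gene THRB, at -5.83 and -6.28 in the authors' deposited table. Of 45 amino acid transporter genes, 2 (4.44%) were listed, SLC16A10 and SLC7A8, both among the 6 and with opposite signs. Of the sulfate transport and sulfation genes, 5 of 86 (5.81%) were listed and 4 were negative, where 25.7% of all listed genes were negative. SLC26A11 is 1 of these 4. Beside SLC26A11 and SGSH these were HS3ST3A1 (-3.5 and -4.82) and HS3ST3B1 (-2.03 and -4.64), heparan sulfate sulfotransferase genes, in the authors' deposited table. They are close copies in part of their sequence, so some reads may fit either. DSE, the dermatan sulfate epimerase gene, was the positive one at 1.52 and 1.75 in the authors' deposited table. SLC9A2 was the only 1 of 46 annotated sodium-proton exchange and pH regulation genes (2.17%) that was listed.

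Of a list of 16 drug carriers and pumps, among them several studied for imatinib transport, 2 (12.5%) were listed, against 2.41% of all protein-coding genes. They were SLCO4C1, taken because it was listed, and the efflux pump gene ABCB1, which was positive at 2.08 and 4.90 in the authors' deposited table. Both had the larger fold in the second column, as did 76.7% of all listed genes. The efflux pump gene ABCG2 was not among the listed genes. ABCB1 and ABCA5 (1.66 and 2.58 in the authors' deposited table) were the 2 listed genes of 48 ABC transporters. Sodium-potassium and calcium pump genes had 0 of 27 listed, kidney tubule and epithelial marker genes 0 of 18, and sensory neuron and neuroendocrine genes 1 of 27, the secretory granule gene SCG3 (-5.5 and -5.85 in the authors' deposited table). A gene that is not listed may have missed a limit in either comparison, and its change cannot be read from the table.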

How the data were processed

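RNA sequencing covered 6 K562 libraries, 2 each of IR1, IR2 and WT, and nothing says that the 2 came from separate cultures. The authors deposited log2 fold changes of 674 genes in 2 columns, read here as given. The submitters' processing notes name hg19 and, as tools, DESeq2 3.5, Subread, featureCounts and HISAT2 2.1.0. Their roles, the use of strand, the handling of multi-mapped reads and the limits of the selection are not stated.

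Symbols came from a gene name table (654 of 674 identifiers matched). Gene type, order and overlap came from GENCODE release 29 on GRCh38 (657 matched), a build other than that of the authors, so gene coordinates are not printed. Promoter windows are from RefSeq (GRCh38.p14). Signs, ranks by absolute mean fold, gaps and distances were computed with Python 3.11.15 and pandas 2.3.3 and tested on simulated data. Planned count models need values per library and were not run. The members, lists and motifs were chosen with earlier results of these data known. Named genes were the 6 members, listed members of the gene lists, the 3 nearest genes to each member and listed neighbours within 10 places. Genes named as not listed were chosen afterwards. Values of some list members are left out of the text and figures, though these genes stay in every count. Alternatives were a minimum absolute log2 fold change of 2, either column alone, other gene names, protein-coding genes alone, and other measures of gap and rank.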

Additional observations from a re-analysis of the deposited data

How the results depend on the processing

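The 5 negative members were 4 when folds under 2 on the log2 scale were dropped, which left out SLC7A8. With older symbols, which could only add genes, the count was 5. By either column alone it was 5 as well. That count could not differ, because every listed gene has the same sign in both columns. Of the 19 listed genes in the lists of carriers, sodium channels and other ion channels 8 were negative, where 25.7% of all listed genes were negative. The 19 include the pseudogene SLC9A3P2 and, from the channel list, TRPM2-AS and TMEM163, which are not channels, all positive. The 8 include the 5 negative members, which were chosen with their signs known. Of these 8, 4 are solute carriers, the count for that family alone, and 6 pass the minimum of 2. The count of members larger in the second column was 3 with a log2 gap above 0.32, 5 with any gap, and 3 on the linear scale with folds more than 1 apart. Of 18 other ranks of single members, 14 were within 1.5 times the reported rank. These used the larger fold, the smaller fold or protein-coding genes alone, which are fewer, and ranks by a single column are not among them. SCN9A ranked 27 by the larger and 13 by the smaller fold among the 173 negative genes. It ranked 9 among the 128 negative protein-coding ones. No paired analysis was possible because the columns hold comparisons and carry no replicate. For the same reason leaving out a library was not run, and the depth that limits each fold is unknown.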
